A study of Mus musculus with 37 samples.

Results

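The kidney left in place when the ureter of the other one is tied often serves as an internal control, and here such contralateral kidneys of one mouse line were set against kidneys of wild-type mice labelled healthy. Of the 37 arrays of the series, 6 entered this comparison, chosen by the genotype and phenotype labels alone. The contralateral group held 3 kidneys (mice 8, 9 and 10) of genotype ggt-cre-;Snail flox/flox, from a mix of C57Bl/6 and Balb/c. The healthy group held 3 kidneys (mice 17, 18 and 19) of genotype ggt-cre-;WT, from a mix of C57Bl/6 and sv129. All 6 mice were 10 weeks old, none carried cre, and each array came from a separate mouse. The groups thus differed in the tied ureter, the floxed Snai1 alleles and the strain mix at once, and these cannot be told apart by the comparison itself. The time between surgery and tissue collection is not given in the sources used here. The labels' treatment field names ureter obstruction for every sample, while the phenotype label and the series' design text call the wild-type kidneys healthy.

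In this model the obstructed kidney loses tubules and scars, while the opposite kidney takes over filtration and enlarges. That growth is known mainly as enlargement of proximal tubule cells, with a brief wave of cell division. Snai1, also called Snail, is a zinc finger transcription factor that represses epithelial genes and is scarcely expressed in adult tubules. Floxed alleles carry sites that cre recombinase recognises, and without cre the gene stays whole. The series uses cre under the ggt promoter of proximal tubule cells to delete Snai1 or Twist1 there.

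Whole kidney RNA was hybridised to Illumina bead arrays. Levels are background-corrected, quantile-normalised intensities on the log2 scale, on which Tm7sf3, not detected in any of the healthy mice, lay at 4.37, 4.42 and 4.35. The 25th percentile of raw signal was 104.2 to 110.1 in the contralateral group and 107.6 to 112.5 in the healthy group, and 39.5% to 41.6% and 37.8% to 40.1% of probes were detected. Arrays correlated across 12866 genes at r = 0.976 to 0.983 within the contralateral group, 0.977 to 0.989 within the healthy group and 0.971 to 0.986 between the groups. Xist exceeded the Y-linked genes in 1 of 3 mice of each group. Snai1 was near background in both groups, at 5.17, 4.82 and 4.97 in mice 8, 9 and 10 and at 4.92, 4.48 and 5.30 in mice 17, 18 and 19, and without cre no loss of it would be seen.

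The strain labels were set against H2-Ea, a class II histocompatibility gene that C57Bl/6 and sv129 mice are known to lack and Balb/c mice to express. It was high in all 3 contralateral kidneys, at 11.13, 10.44 and 10.05. The healthy wild-type kidneys were as high, at 9.91, 10.73 and 10.28 (difference 0.24, SE 1.41, adjusted p = 1). Wild-type mice with cre had 9.68 to 10.48, while contralateral kidneys of Twist-line mice without cre, whose label names the same strain mix as the wild-type mice, had 4.42 to 4.47. Twist-line mice with cre, of the same labelled mix, were split, with 10.60 to 10.97 in healthy kidneys at 26 weeks and 4.41, 4.81 and 11.24 in the contralateral kidneys of mice 4, 6 and 7. At this gene the wild-type mice did not match the strains their label names, and why was not tested. Nnt, the mitochondrial transhydrogenase gene that is disrupted in C57Bl/6J mice, was low in both groups, at 4.43, 5.40 and 5.15 against 4.74, 4.44 and 4.42.

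Few genes set the contralateral kidneys apart from the healthy ones. Of 12866 genes tested, 57 passed an adjusted p of 0.05 in limma (0.443%), 21 of them higher in the contralateral kidneys (0.163%) and 36 lower (0.28%). For all 57 the 3 contralateral values lay outside the range of the 3 healthy values, which was so for 13% of all genes. Of the 57, 40 differed by more than 2-fold, and 12 were not detected on any array of 1 group. The median difference over all genes was -0.0046, and 905 genes had an unadjusted p under 0.05. Leaving out 1 of the 6 kidneys gave 28 to 46 genes, with 28 without mouse 19, 36 without mouse 10 and 37 without mouse 8. The fit of the 6 arrays alone gave 19.

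Among the largest rises were genes whose probe was not detected in any healthy kidney, which does not show that the gene was silent there. Pdrg1, a prefoldin-like protein gene that responds to DNA damage, was at 9.34, 9.46 and 9.60 in mice 8, 9 and 10, and at 4.48, 4.46 and 4.45 in mice 17, 18 and 19. It was detected in every contralateral kidney and in no healthy one, an at least 21.1-fold difference (means 9.47 ± 0.13 and 4.46 ± 0.02, SD, n = 3 and 3, limma adjusted p = 0.00478). Tm7sf3, which encodes a membrane protein with several transmembrane spans, showed the same pattern, at 8.55, 8.88 and 8.64 against 4.37, 4.42 and 4.35. It was at least 12.3-fold higher (adjusted p = 0.000328). Twistnb, a gene for a subunit of RNA polymerase I, was at 6.46, 6.44 and 6.40 against 4.47, 4.58 and 4.45, at least 2.57-fold higher (adjusted p = 0.000328), and a second probe of it was also higher, by 1.14. Eif4e, which binds the cap of messenger RNA, was at 6.65, 6.46 and 5.91 against 4.92, 4.75 and 4.54, at least 2.41-fold higher (adjusted p = 2.37e-05). All bounds of this kind hold only on the background-corrected scale. Without the background step the difference was 2.92 in place of 5.00 for Pdrg1, 2.32 in place of 4.31 for Tm7sf3, 0.72 in place of 1.93 for Twistnb and 0.59 in place of 1.60 for Eif4e, all on the log2 scale and all under these bounds, and it was smaller by over 1.5 times for 15 of 25 named called genes.

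Tomm22 and Timmdc1, both with mitochondrial products, were expressed in both groups and higher in the contralateral one. Tomm22, a receptor of the protein import machinery of the outer membrane, was at 10.35, 9.77 and 9.57 against 6.86, 6.79 and 7.04. The groups lay far apart, by 3.00 (SE 0.26, adjusted p = 2.12e-08), which is 8.01-fold. Its second probe, which was detected in 1 of the 6 kidneys, differed by 0.10. Timmdc1, an assembly factor of respiratory complex I, was at 9.00, 9.72 and 9.63 against 7.68, 7.78 and 7.65, a difference of 1.75 (SE 0.20, adjusted p = 8.23e-06). Rassf3, a Ras-association domain protein, was at 8.80, 8.71 and 8.58 against 7.38, 7.35 and 7.47 (difference 1.30, SE 0.30, adjusted p = 0.0398). Camk2b, a subunit of a calcium- and calmodulin-dependent kinase, was at 6.48, 6.58 and 5.97 against 5.03, 5.26 and 4.31 (difference 1.48, SE 0.34, adjusted p = 0.0374). Camk2b missed the threshold under 11 of 18 alternatives, with a difference of 0.59 without the background step, and Rassf3 under 8.

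Among the largest falls, Cmss1 and Chmp1a were detected in 0 and 1 of 3 contralateral kidneys, while Adat2 and Wdfy1 were detected in all 6 kidneys. Cmss1, named for the small ribosomal subunit, was at 4.48, 4.70 and 4.80 in mice 8, 9 and 10, and at 7.61, 7.13 and 7.59 in mice 17, 18 and 19. It was detected in no contralateral kidney and was at least 5.59-fold lower there (adjusted p = 6.25e-09), a bound that again needs the background step, without which the log2 difference was -1.24 in place of -2.79. Chmp1a, a subunit of the membrane-cutting ESCRT-III machinery, was at 5.53, 4.77 and 4.75 against 7.72, 8.04 and 7.08, and fell by 2.60 (SE 0.46, adjusted p = 0.00271). Adat2, a subunit of a tRNA deaminase, was at 8.00, 7.73 and 7.95 against 10.06, 10.00 and 9.41, and fell by 1.93 (SE 0.40, adjusted p = 0.0156). Wdfy1, an endosomal adaptor of Toll-like receptors, was at 7.79, 8.71 and 9.18 against 9.72, 10.22 and 10.18, and fell by 1.48 (SE 0.31, adjusted p = 0.019). A pair outside the 24 largest changes, chosen after the values were seen, lies side by side among the tested genes of chromosome 4. Ubxn10, an adaptor protein of cilia, was at 4.61, 4.58 and 4.80 against 5.73, 6.15 and 6.38, at least 2.18-fold lower (adjusted p = 1.95e-05). Pla2g2c, a secreted phospholipase A2, was at 4.76, 4.70 and 5.17 against 5.33, 5.97 and 5.76 and fell by 0.81 (SE 0.17, adjusted p = 0.019).

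**Figure D1:**
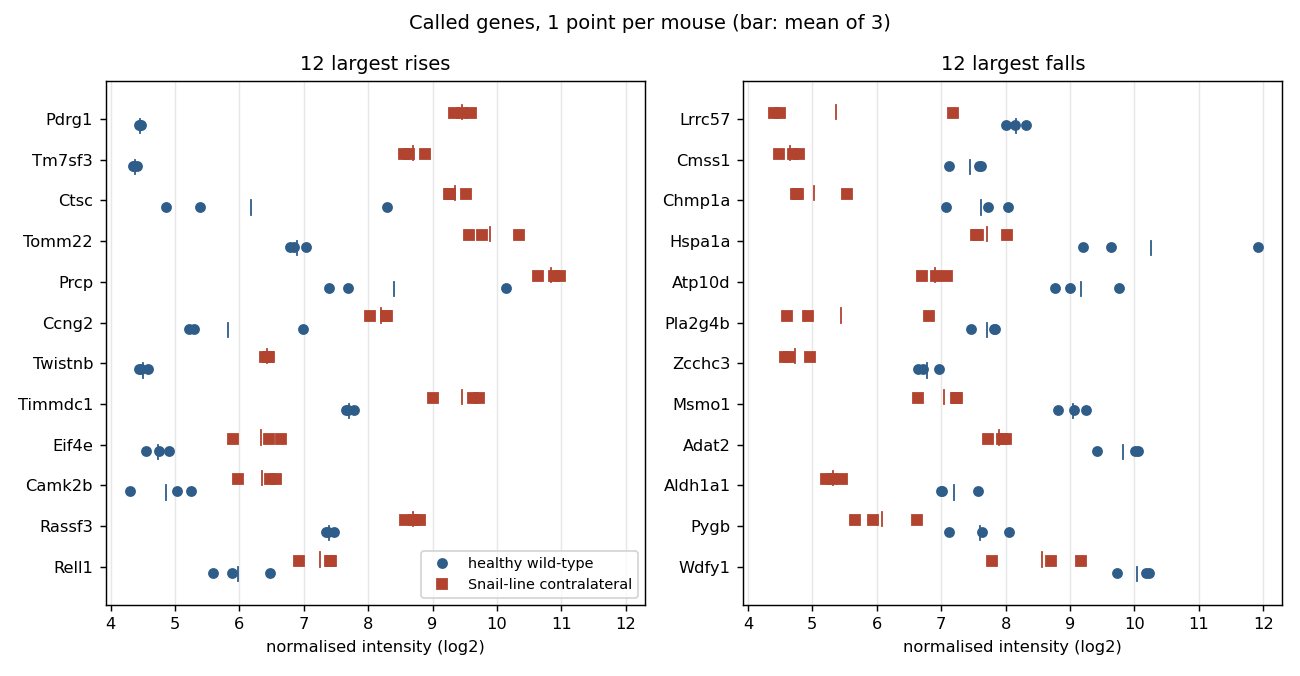
Normalised intensity (log2, x axis) of the 12 called genes with the largest rises and the 12 with the largest falls, 1 point per mouse, squares for Snail-line contralateral and circles for healthy wild-type kidneys, with a bar at each mean of 3. Genes with clone or predicted names were left out by the naming rule, and the groups overlapped in 0 of the 57 called genes. Pdrg1 means are 9.47 ± 0.13 and 4.46 ± 0.02 (SD), and Ctsc, Prcp and Ccng2 have 1 healthy mouse near the contralateral range.

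The plot of the largest changes shows genes with tight groups far apart beside genes in which 1 mouse stood between the groups. The called genes were also unevenly spread over the chromosomes. Chromosome 2, which carries Snai1, held 15 of the 57 (26.3%) but 1017 of the 12866 tested genes (7.9%), so that 1.47% of its tested genes were called. Chromosome 5 held 9 of 824 (1.09%) and chromosome 7 held 5 of 1028 (0.486%). Chromosome 11, with the most tested genes, held 1 of 1078 (0.0928%). The count on chromosome 2 was 4 in the fit of the 6 arrays alone and 10 to 20 under the other alternatives.

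Along chromosome 2 the called genes were placed by their order among the tested genes, counted from Snai1. From 200 tested genes before Snai1 to the end of the chromosome, 10 of 286 tested genes were called, and in the rest of the chromosome 5 of 731. These limits, and the naming of called genes on this chromosome outside the 24 largest changes, were chosen after the values were seen. Coming towards Snai1, the genes were Pygb (lower, 182 genes away), Zcchc3 (lower, 164), Pdrg1 (higher, 149), Eif2s2 (higher, 128), Rbm12 (lower, 109), Manbal (higher, 90), Serinc3 (lower, 60), Sys1 (higher, 45) and Trp53rka (lower, 18). Mocs3 (lower), of molybdenum cofactor synthesis, lay 9 genes beyond it. Snai1 itself differed by 0.09 (SE 0.27, adjusted p = 1).

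Zcchc3, a zinc finger protein that assists sensors of foreign nucleic acids, was at 4.63, 4.96 and 4.58 in mice 8, 9 and 10, and at 6.97, 6.72 and 6.64 in mice 17, 18 and 19. It fell by 2.06 (SE 0.28, adjusted p = 0.000104), to near background, while its other probes differed by -0.66 and -0.78. Pygb, the brain form of glycogen phosphorylase, was at 5.66, 5.95 and 6.62 against 8.05, 7.63 and 7.13, and fell by 1.53 (SE 0.28, adjusted p = 0.00368). Serinc3, a membrane protein that restricts retroviruses, was at 9.57, 9.62 and 9.78 against 10.64, 10.99 and 10.96, and fell by 1.21 (SE 0.18, adjusted p = 0.000392). Rbm12, an RNA-binding protein, was at 6.56, 6.27 and 6.41 against 7.73, 7.50 and 7.60, and fell by 1.19 (SE 0.18, adjusted p = 0.000349). In Zcchc3, Serinc3 and Rbm12 the spread within each group was small beside the difference. Sys1, a Golgi trafficking protein, was higher, at 8.28, 8.17 and 8.16 against 7.27, 7.43 and 7.22 (difference 0.90, SE 0.16, adjusted p = 0.00368). Manbal was at 10.20, 9.96 and 10.19 against 9.45, 9.29 and 9.08 (difference 0.84, SE 0.17, adjusted p = 0.0116). Eif2s2, a subunit of the translation factor eIF2, had the smallest called difference on the chromosome, 0.50 (SE 0.11, adjusted p = 0.0344). Trp53rka has a close copy, Trp53rkb, which differed by -0.04 (adjusted p = 1), so the gene behind the fall of Trp53rka by 1.02 (SE 0.16, adjusted p = 0.000582) is uncertain.

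Farther from Snai1, Lrrc57, Ganc and Pla2g4b lay close together, 352, 356 and 363 tested genes away. Lrrc57, a leucine-rich repeat protein, was at 4.40 and 4.49 in mice 8 and 9 but at 7.19 in mouse 10, against 8.01, 8.14 and 8.31 in the healthy mice. Pla2g4b, a cytosolic phospholipase A2, was at 4.93 and 4.60 in mice 8 and 9 and 6.82 in mouse 10, against 7.82, 7.47 and 7.83. In both genes mouse 10 stood between the other contralateral mice and the healthy ones. The obstructed kidneys of mice 8, 9 and 10 had the same order for Lrrc57, at 4.34, 4.40 and 6.69. In the fit Lrrc57 fell by 2.79 (SE 0.47, adjusted p = 0.00154) and Pla2g4b fell by 2.26 (SE 0.36, adjusted p = 0.000843). The other probes of Pla2g4b, detected in 0 of the 6 kidneys, differed by 0.06 and -0.04. Ganc, a neutral alpha-glucosidase, lay between them and was higher with no such split, at 10.56, 10.66 and 10.54 against 9.79, 9.34 and 9.27 (difference 1.12, SE 0.17, adjusted p = 0.000328). Cd59a, an inhibitor of the complement membrane attack complex, was 431 genes away, at 9.98, 10.17 and 10.39 against 11.73, 11.25 and 11.45, and fell by 1.30 (SE 0.22, adjusted p = 0.00154).

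Other mice of the series gave the same contrast of lines without sharing an array with it, in comparisons added after the data were seen. Snai1-deleted contralateral kidneys (ggt-cre+;Snail flox/flox, mice 11 to 13, 10 weeks) against healthy ggt-cre+;WT kidneys (mice 14 to 16, 10 weeks) yielded 77 called genes (0.598%). Of the 57 genes, 55 had the same direction there and 26 passed, which is 45.6% of the 57 and 33.8% of the 77. Healthy Snai1-deleted kidneys (mice 23 to 25, 26 weeks) against the same ggt-cre+;WT kidneys involved no tied ureter by the phenotype label, and yielded 112 called genes (0.871%). There 50 of the 57 had the same direction and 27 passed, 47.4% of the 57 and 24.1% of the 112. Both comparisons share their wild-type arrays. In both, the Snail-line side carries cre and, by its label, lacks Snai1 in proximal tubules, and in the second it was also older. Twist-line contralateral kidneys without cre, against the wild-type arrays of the main comparison, yielded 2281 called genes (17.7%). Of the 57 genes, 43 had the same direction in that comparison and 24 passed, 42.1% of the 57 and 1.05% of the 2281.

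Of the 10 genes in the stretch around Snai1, 9 passed in the same direction in both Snai1-deleted comparisons, the exception being Trp53rka. Over all tested genes of the stretch, the contralateral and the healthy comparison called 7 and 7 of the 100 lying 200 to 101 before Snai1. They called 3 and 4 of the next 100, and 1 and 1 of the 86 from Snai1 on. Pdrg1 differed by 5.17 in the Snai1-deleted contralateral kidneys (adjusted p = 0.00324) and by 5.25 in the healthy Snai1-deleted kidneys (adjusted p = 0.00175), beside 5.00 in the mice without cre. Serinc3 differed by -1.66 and -1.50 (adjusted p = 2.19e-06 and 1.19e-05) and Zcchc3 by -2.05 and -2.09 (adjusted p = 8.84e-05 and 6.02e-05). Outside the stretch, Tm7sf3 differed by 3.97 and 3.76 (adjusted p = 0.000814 and 0.00119) and Cmss1 by -1.81 and -1.87 (adjusted p = 1.4e-05 and 7.94e-06). Lrrc57 was at 7.00 to 7.31 and Pla2g4b at 6.41 to 7.11 in mice 11 to 13, nearer to mouse 10 than to mice 8 and 9, and neither passed (adjusted p = 0.535 and 0.544). Twistnb differed by 1.19 in the contralateral comparison (adjusted p = 0.0433), with 6.22, 6.27 and 4.80 in mice 11, 12 and 13, and by -0.03 in the healthy Snai1-deleted kidneys (adjusted p = 0.992). Chromosome 5, with 9 of the 57 genes, held 0 called genes in the Snai1-deleted contralateral comparison and 3 in the healthy one. In Twist-line contralateral against healthy wild-type kidneys, Pdrg1 and Zcchc3 passed in the same direction (3.99 and -0.84, adjusted p = 0.00428 and 0.0386). Sys1 and Pygb passed there in the opposite direction (-0.89 and 0.86, adjusted p = 0.000785 and 0.0312), and the other genes of the stretch named above did not pass.

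**Figure D2:**
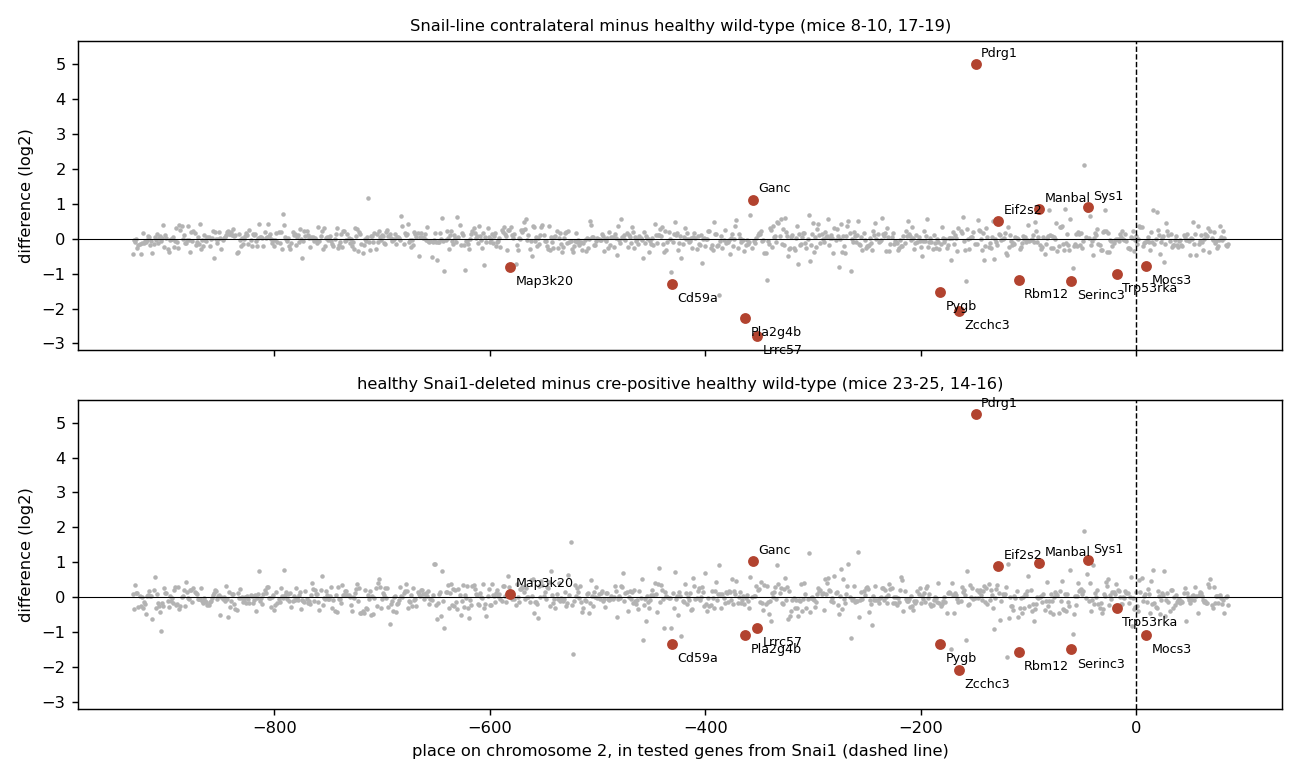
Differences (log2, y axis) of the 1017 tested genes of chromosome 2 in their order from Snai1 (x axis, counted in tested genes, dashed line at Snai1), grey for all and red with names for the 15 called in the comparison without cre. The upper panel gives Snail-line contralateral minus healthy wild-type, the lower panel healthy Snai1-deleted minus cre-positive healthy wild-type kidneys; Pdrg1 is at 5.00 and 5.25, and Map3k20 and Trp53rka at 0.10 and -0.30 in the lower panel.

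The plot along chromosome 2 sets both contrasts under each other. Map3k20, a stress-activated kinase, lay 581 genes from Snai1. Among mice without cre it was at least 1.41-fold lower in Snail-line contralateral than in healthy wild-type kidneys (adjusted p = 0.019). In the Snai1-deleted contralateral and healthy comparisons, of mice with cre, it differed by 0.07 and 0.10 (adjusted p = 0.956 and 0.945).

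A second set of called genes varied within the healthy group. Ctsc, the lysosomal dipeptidyl peptidase cathepsin C, was at 9.28, 9.25 and 9.53 in mice 8, 9 and 10, and at 5.38, 8.29 and 4.86 in mice 17, 18 and 19. Prcp, a lysosomal peptidase that cleaves angiotensin II, was at 10.98, 10.63 and 10.89 against 7.39, 10.15 and 7.69. It is separated from Ctsc by 17 tested genes on chromosome 7, and in both genes mouse 18 stood next to the contralateral mice. The group differences were 3.18 for Ctsc (SE 0.52, adjusted p = 0.000962) and 2.43 for Prcp (SE 0.49, adjusted p = 0.0117). In the fit of the 6 arrays alone neither passed (limma adjusted p = 0.429 and 0.446). The other probes of Ctsc differed by 1.96 and 2.36 in the same direction, while a second probe of Prcp was detected in 0 of the 6 kidneys. Of the 22 called genes with more than 1 kept probe, 13 had another probe with the same direction at an unadjusted p under 0.05.

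On chromosome 5 the same mouse stood apart. Ccng2, the cell cycle inhibitor cyclin G2, was at 8.29, 8.02 and 8.27 in the contralateral kidneys and at 5.29, 6.98 and 5.22 in mice 17, 18 and 19 (difference 2.36, SE 0.29, adjusted p = 1.95e-05). It missed the threshold in the fit of the 6 arrays alone (limma adjusted p = 0.245). Rell1, a relative of the tumour necrosis factor receptor RELT, was at 6.93, 7.43 and 7.41 against 5.58, 6.48 and 5.89 (difference 1.27, SE 0.28, adjusted p = 0.0305). Bmp2k, a kinase outside the 24 largest changes that is separated from Ccng2 by 8 tested genes, was at 4.78, 4.49 and 4.69 against 6.46, 5.44 and 6.41, at least 2.21-fold lower (adjusted p = 0.000555). In these 3 genes mouse 18 was the healthy mouse nearest to the contralateral ones. Atp10d, a lipid flippase, was at 6.69, 7.08 and 6.92 against 9.76, 9.00 and 8.76 and fell by 2.27 (SE 0.49, adjusted p = 0.0217), with mouse 17 the highest. Dao, the D-amino acid oxidase of proximal tubules, was at 11.45, 11.69 and 11.40 against 4.59, 10.77 and 4.71, and with mouse 18 again apart its difference of 4.83 (SE 1.31) did not pass (adjusted p = 0.132).

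Wild-type mice with cre did not share the low values of mice 17 and 19. Ctsc was at 7.95 to 9.12, Prcp at 9.99 to 10.91 and Ccng2 at 7.57 to 8.36 in mice 14 to 16. Atp10d was at 6.76, 8.90 and 6.75 in mice 14, 15 and 16, so that mouse 15 resembled the mice without cre. Cre-positive against cre-negative healthy wild-type kidneys gave 2 called genes (0.0155%), Ccng2, which was higher with cre by 2.17 (adjusted p = 0.000528), and Aldh1a7, which is no gene of the 24 and was chosen after its values were seen. Snail-line contralateral kidneys against the cre-positive wild-type kidneys gave 62 called genes (0.482%). There Ctsc differed by 0.95, Prcp by 0.52, Ccng2 by 0.20 and Atp10d by -0.57 (adjusted p = 0.634, 0.863, 0.938 and 0.836). Pdrg1 differed by 5.10 (adjusted p = 0.00322) and Tm7sf3 by 4.22 (adjusted p = 0.000394). With both wild-type groups together as the reference, Ctsc differed by 2.06, Prcp by 1.47, Ccng2 by 1.28 and Atp10d by -1.42, and none of these 4 passed (adjusted p = 0.1, 0.234, 0.206 and 0.233). These comparisons use the same contralateral arrays, so their values only stand side by side.

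**Figure D3:**
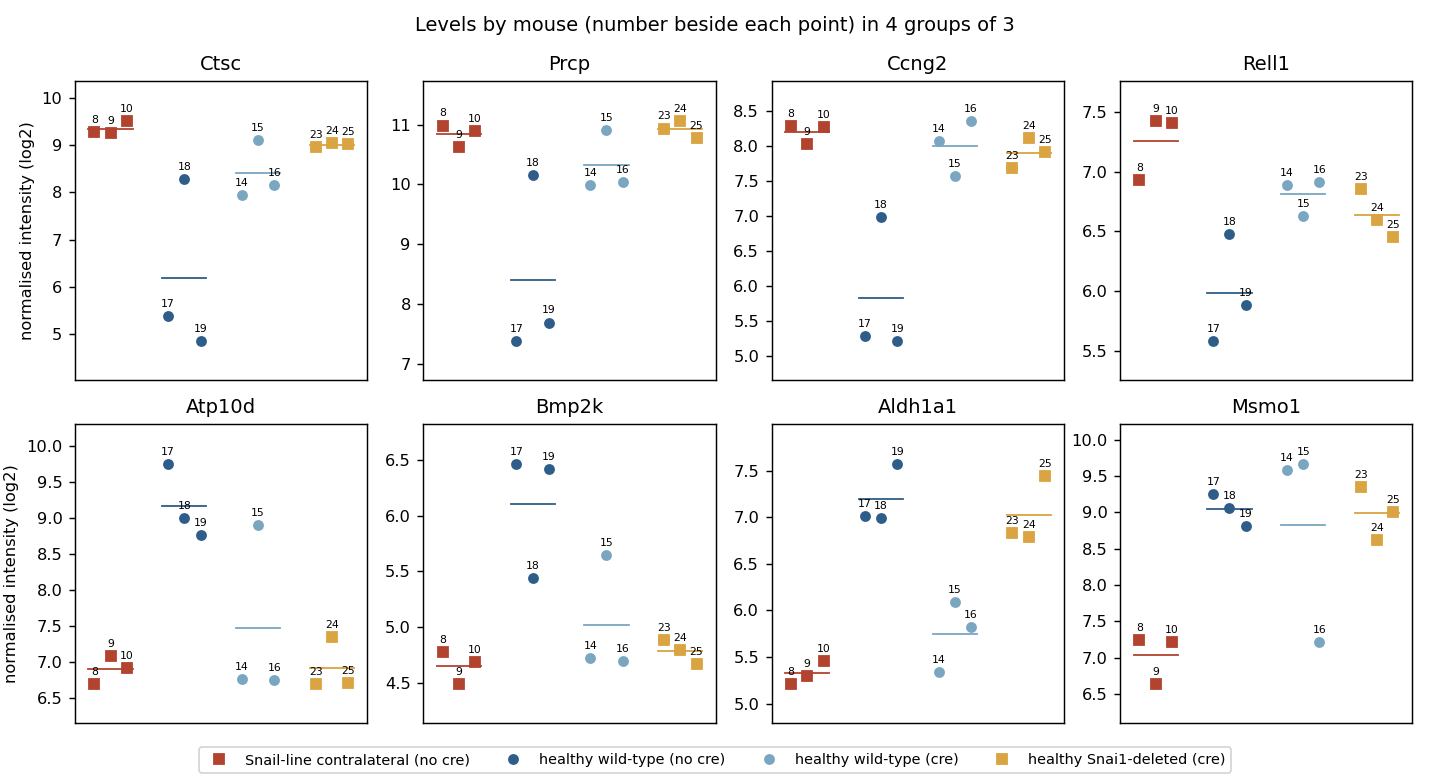
Normalised intensity (log2, y axis) of 8 called genes in 4 groups of 3 mice, squares for Snail-line and circles for wild-type mice, each point with its mouse number and a line at the group mean. Mouse 18 lies above mice 17 and 19 in Ctsc, Prcp, Ccng2 and Rell1, and wild-type mice with cre (14 to 16) lie near the contralateral mice (8 to 10) in Ccng2 (7.57 to 8.36) and Rell1 (6.63 to 6.91).

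The plot of levels by mouse also shows metabolic genes that were uniform within the healthy group without cre. Aldh1a1, which makes retinoic acid from retinaldehyde, was at 5.21, 5.30 and 5.46 in the contralateral kidneys and at 7.01, 6.99 and 7.57 in the healthy ones, and fell by 1.87 (SE 0.42, adjusted p = 0.0344). It missed the threshold under 11 of 18 alternatives. The wild-type mice with cre had 5.34, 6.09 and 5.83, and the healthy Snai1-deleted mice 6.83, 6.78 and 7.45. Its near copy Aldh1a7 differed by -0.94 (adjusted p = 0.818), and since probes of such similar genes may share signal, the gene of origin is uncertain. Msmo1, the sterol C4 oxidase of cholesterol synthesis, was at 7.25, 6.64 and 7.22 against 9.25, 9.06 and 8.82, and fell by 2.01 (SE 0.42, adjusted p = 0.019). The wild-type mice with cre had 9.59, 9.67 and 7.22 in mice 14, 15 and 16, and mouse 16 alone was at the contralateral level. Of the 21 measured genes of cholesterol and fatty acid synthesis Msmo1 was the 1 called, and their median difference was -0.16. Sqle, the squalene epoxidase of the same pathway, was at 10.14, 10.22 and 9.83 against 10.43, 10.45 and 9.78 (difference -0.16, adjusted p = 1).

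Heat shock chaperones were the other list with called genes. These proteins refold damaged proteins, and heat shock factor switches on their inducible members after heat or other stress, through repeated GAA blocks in the promoter. Of 14 measured members of 15 listed, 2 fell and 0 rose, beside 36 and 21 of 12866 over all genes. For 13 of the 14 the difference was below 0, with a median of -0.70 against -0.0046 for all genes. The 250 bases before the start of the 2 members that fell and of Zfand2a, a stress-inducible zinc finger gene on no list that was chosen after its values were seen, follow 5′ to 3′ on the gene's strand, from RefSeq on GRCm38.p6, with Dnajb1 taken at the most upstream of its listed starts. Capitals mark matches to GAANNTTC or TTCNNGAA, each of which reads the same on both strands. They are shown because all 3 genes were called lower. The element that heat shock factor binds usually holds 3 or more such blocks, of which these matches are 2.

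Hspa1a, chr17:34972157-34972406, minus strand: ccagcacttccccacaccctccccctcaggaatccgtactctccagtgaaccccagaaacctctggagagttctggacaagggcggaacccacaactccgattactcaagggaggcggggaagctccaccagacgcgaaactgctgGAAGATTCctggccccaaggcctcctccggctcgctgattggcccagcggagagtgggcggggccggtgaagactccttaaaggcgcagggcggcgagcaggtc
Dnajb1, chr8:83607925-83608174, plus strand: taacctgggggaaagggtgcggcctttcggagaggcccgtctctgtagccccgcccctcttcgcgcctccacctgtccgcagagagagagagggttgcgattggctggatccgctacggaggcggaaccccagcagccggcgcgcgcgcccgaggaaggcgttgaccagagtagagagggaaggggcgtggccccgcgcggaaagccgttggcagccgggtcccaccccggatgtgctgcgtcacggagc
Zfand2a, chr5:139484492-139484741, minus strand: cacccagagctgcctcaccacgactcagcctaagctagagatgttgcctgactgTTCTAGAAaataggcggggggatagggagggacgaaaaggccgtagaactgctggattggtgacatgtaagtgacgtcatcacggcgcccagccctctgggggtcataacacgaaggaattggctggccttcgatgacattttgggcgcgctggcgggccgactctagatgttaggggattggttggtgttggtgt

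Hspa1a held 1 match, beginning 104 bases before its start, Zfand2a 1 match at 196 bases, and Dnajb1 0 in this window. Such a match was present in 4218 of the 32851 upstream stretches of the same length (12.8%). A match with 1 more block in the same spacing was present in 153 of them (0.466%) and in 0 of the 3 shown. The absence of a match says only that these letters are not in the window.

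Hspa1a, the stress-inducible Hsp70 protein, was at 7.54, 7.57 and 8.02 in mice 8, 9 and 10, and at 9.64, 9.20 and 11.92 in mice 17, 18 and 19. It fell by 2.54 (SE 0.54, adjusted p = 0.0217), with mouse 19 far above the other healthy mice. Hspa1b, a nearly identical copy whose transcripts may share signal with it, was at 5.45, 4.63 and 5.50 against 6.42, 6.32 and 8.99 (difference -2.05, SE 0.53, adjusted p = 0.0994), so which copy fell is uncertain. Dnajb1, the co-chaperone that hands clients to Hsp70, was at 10.83, 10.68 and 11.26 against 11.82, 11.55 and 12.70, and fell by 1.10 (SE 0.24, adjusted p = 0.0275). Zfand2a was at 8.98, 8.78 and 8.96 against 9.28, 9.43 and 9.56, and fell by 0.52 (SE 0.12, adjusted p = 0.0359). In each of these genes mouse 19 had the highest value of the 6.

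Mouse 19 was also the highest of the 6 in every other measured member of the list. Hsph1, a nucleotide exchange factor of the Hsp70 machine, was at 10.95, 10.88 and 10.92 against 11.72, 11.51 and 12.50 (difference -0.99, adjusted p = 0.393). Hspb1, a small heat shock protein, was at 7.71, 7.27 and 7.46 against 8.50, 7.94 and 9.85 (difference -1.29, adjusted p = 0.412). The mitochondrial chaperonins Hspd1 and Hspe1 differed by -0.09 and -0.17, and Cryab, a crystallin that also acts as a chaperone, by 0.15 (adjusted p = 1 for each). Without mouse 19, 0 members of the list passed, and 0 passed without mouse 8 or mouse 9 and 1 without mouse 10. The fits of the 6 arrays alone and without obstructed kidneys also left 0.

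**Figure D4:**
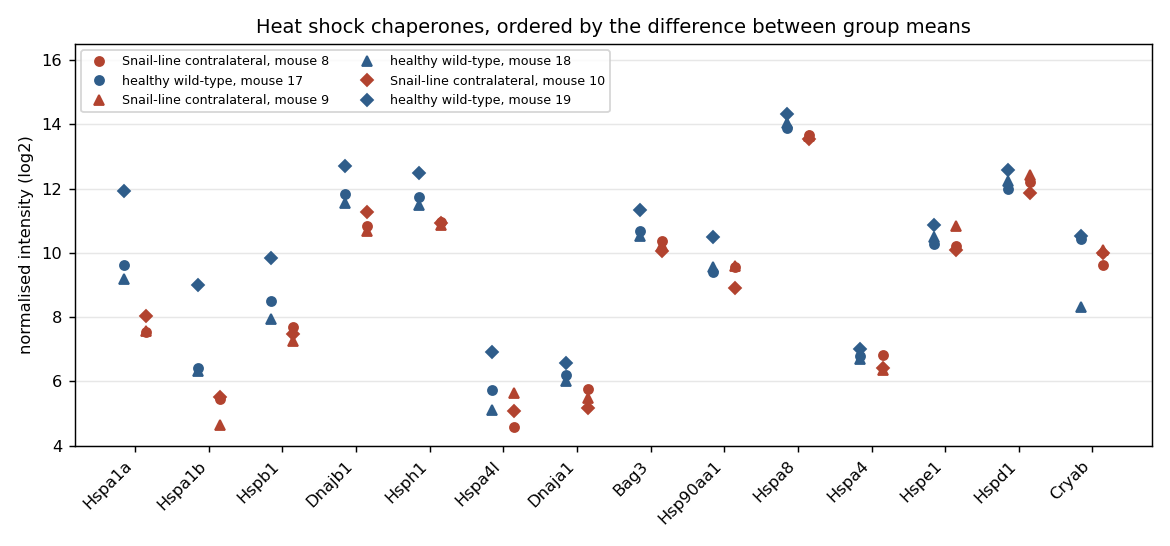
Normalised intensity (log2, y axis) of the 14 measured heat shock chaperones, ordered by the difference of group means (x axis), 1 symbol per mouse, blue for healthy wild-type and red for Snail-line contralateral kidneys. Mouse 19 (blue diamond) is the highest in each gene; Hspa1a separates the groups, with 7.54, 7.57 and 8.02 against 9.64, 9.20 and 11.92, while Hspd1 and Cryab do not.

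As the plot of the chaperones shows, the healthy group spread widely in the genes at its left. Over all 12 groups, Hspa1a had its highest means in both healthy wild-type groups, 10.25 ± 1.46 without cre and 9.66 ± 1.20 with cre (SD, n = 3 each). Healthy Snai1-deleted kidneys, from mice with no ureter tied by their label, were at 7.30 to 7.43, below every wild-type value. Against the cre-positive wild-type kidneys they differed by -2.31 (adjusted p = 0.0326), and Snai1-deleted contralateral kidneys by -1.87 (adjusted p = 0.123). Twist-line contralateral kidneys without cre were at 8.61 to 9.10. Against the same healthy wild-type arrays as above, they gave 8 lower members of 14 with a median of -1.03, in a comparison that called 2281 genes (17.7%).

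Genes of tubule function did not differ past the threshold. Of 25 measured proximal tubule transporters 0 were called (smallest adjusted p = 0.999, median 0.03, range -0.28 to 0.39). Slc34a1, which reabsorbs phosphate, was at 14.74, 14.81 and 14.72 against 14.78, 14.69 and 14.68. Lrp2, the endocytic receptor megalin, was at 13.10, 13.50 and 13.48 against 13.60, 13.18 and 13.13. The groups overlapped in both genes. Of 23 proximal tubule enzymes 0 were called, and Akr1c21, a steroid dehydrogenase, had the smallest adjusted p of them, at 6.32, 6.03 and 4.50 against 7.07, 7.73 and 7.09 (difference -1.68, adjusted p = 0.0649). Of the 15 thick limb and distal tubule genes (median 0.10), the 15 collecting duct genes (0.06), the 6 podocyte genes (0.03) and the 14 endothelial genes (-0.0027), 0 were called. Aqp4, a water channel of the collecting duct, was at 6.79, 5.61 and 5.92 against 8.46, 6.50 and 8.03 (difference -1.56, adjusted p = 0.722).

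Energy metabolism and growth genes likewise gave 0 calls. Median differences were 0.002 over 27 genes of fatty acid oxidation, 0.03 over 25 of mitochondrial respiration, 0.11 over 12 of glycolysis and -0.09 over 23 cytosolic ribosomal proteins. Of 17 growth factor genes tied to kidney growth, Igf1 was at 6.11, 6.34 and 6.33 against 7.03, 6.39 and 6.55 (difference -0.40, adjusted p = 0.905). The 16 genes of G2 and M phase had a median of 0.49, with 15 above 0, beside 6291 of 12866 over all genes. Prc1, a protein of the dividing spindle, was at 7.19, 7.44 and 6.59 against 5.32, 6.16 and 6.12 (difference 1.21, adjusted p = 0.543). Cdc20, an activator of mitotic exit, was at 7.40, 7.15 and 6.23 against 5.72, 5.65 and 6.03 (difference 1.13, adjusted p = 0.62). Neither passed. The contralateral values of both lay above the healthy ones, and the groups did not overlap for 13% of all genes either. The 23 genes of G1 and S phase had a median of 0.19.

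Markers of injury, scarring and inflammation gave 0 calls as well. Lcn2, a protein released by injured tubules, was at 6.63, 7.08 and 7.29 against 6.89, 4.76 and 5.84 (difference 1.17, adjusted p = 0.71). Havcr1, the injury molecule KIM-1, was at 6.26, 8.75 and 9.49 against 9.91, 5.85 and 10.37 (difference -0.54, adjusted p = 1). Each group overlapped the other in both genes. The 20 tubular injury genes had a median of 0.22 and the 23 extracellular matrix genes of 0.10. Of 16 macrophage and myeloid genes, 15 were above 0, with a median of 0.48. Their summed linear level was 2525 to 5556 in the contralateral kidneys and 2261 to 2985 in the healthy ones, ranges that overlap. Such sums did not overlap for 8 of 40 lists, 6 higher and 2 lower in the contralateral kidneys, beside 13% of single genes. No test was run on the sums, which weigh bright genes most. The higher ones were class I presentation (13108 to 14750 against 10109 to 10434), class II presentation (5569 to 7760 against 3746 to 4961), the acute phase and cytokine response (2900 to 3803 against 1823 to 2515), G1 and S phase (11514 to 12823 against 8775 to 10591), G2 and M phase (1153 to 1677 against 946 to 1045) and the circadian clock (14968 to 17064 against 12638 to 14750). The lower ones were heat shock chaperones (24323 to 27341 against 32609 to 51918) and the unfolded protein response (31148 to 31622 against 32098 to 38171). Of the 15 measured circadian clock genes 9 lay above 0 and 6 below, with a median of 0.04 (smallest limma adjusted p = 0.798). All 14 measured class I genes lay above 0, with a median of 0.27 and 0 called (smallest adjusted p = 0.412). More cells of a type and more RNA per cell cannot be told apart in whole kidney RNA. Mpeg1, a pore-forming protein of macrophages, was at 8.07, 8.15 and 7.84 against 6.53, 7.57 and 6.12 (difference 1.28, adjusted p = 0.403). All 11 measured genes of class II presentation were above 0 (median 0.70), with Cd74, the invariant chain, at 11.12, 11.31 and 10.68 against 10.26, 10.55 and 10.20 (difference 0.70, adjusted p = 0.555). The class II gene H2-Aa was high in some mice of each group and near background in others, as given under other observations.

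**Figure D5:**
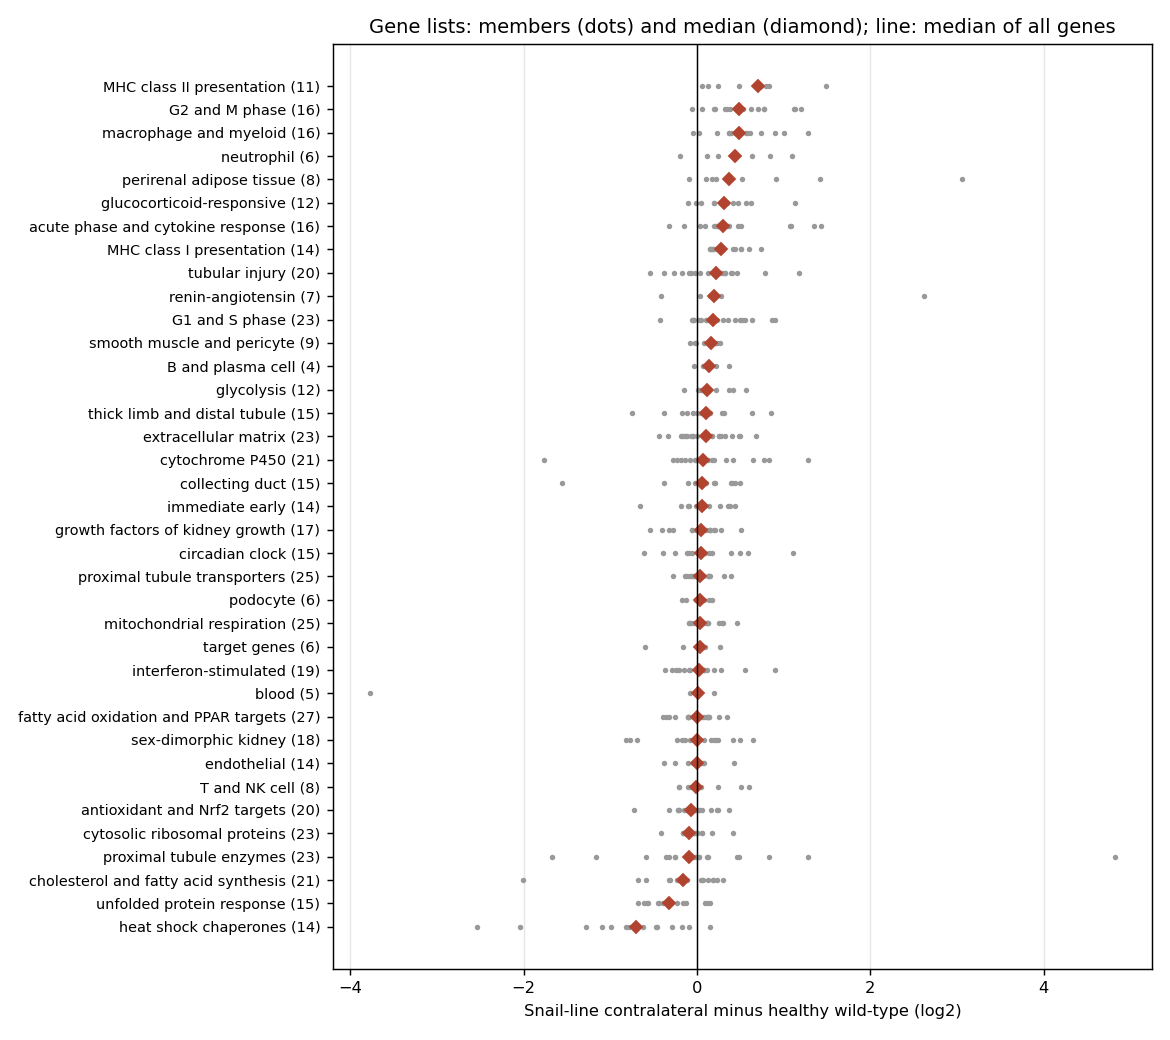
Differences (log2, x axis) of the measured members (grey dots) and their median (red diamond) for 37 of the 38 gene lists with at least 3 measured genes, the sex-linked list being left out (y axis, number measured in brackets), Snail-line contralateral minus healthy wild-type, with a line at the median of all genes. Medians run from -0.70 (heat shock chaperones) to 0.70 (class II presentation), and the far-off dots are Dao (4.83) among proximal tubule enzymes, Hbb-b2 (-3.77) in blood and Car3 (3.06) in adipose tissue.

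In the plot of gene lists most medians lie near that of all genes. The unfolded protein response of the endoplasmic reticulum had the second lowest median, -0.32 over 15 genes, with 0 called and 12 below 0. Atf4, one of its transcription factors, was at 10.48, 10.77 and 10.56 against 11.15, 10.70 and 11.66 (difference -0.57, adjusted p = 0.531), with mouse 19 again highest. Agt, the precursor of the angiotensins, was at 8.08, 7.85 and 8.39 against 4.71, 4.48 and 7.26 (difference 2.62, SE 0.67, adjusted p = 0.0938), the smallest adjusted p among 7 genes of that system. Hbb-b2, a beta-globin gene, was at background in the contralateral kidneys, at 4.42, 4.32 and 4.54, and at 8.69, 7.76 and 8.15 in the healthy ones (difference -3.77, SE 0.99, adjusted p = 0.107). Other globin genes did not share this, Hba-a1 differing by 0.02 and Hbb-bt by -0.08. Among markers of perirenal fat, Car3 was at 9.96, 6.26 and 7.61 against 4.29, 5.53 and 4.83 (adjusted p = 0.685) and Adipoq at 8.60, 4.51 and 4.40 against 4.68, 5.35 and 4.75 (adjusted p = 1), both highest in mouse 8. The other transcription factors of the Snail and Twist families and their partners were not called, with Zeb2 at -0.60 (adjusted p = 0.911), Twist1 at 0.27 (adjusted p = 0.955), Snai2 at -0.16, Zeb1 at 0.06 and Twist2 at -0.00076 (adjusted p = 1 for the last 3). The direction of Zeb2 turned with the probe, since another one, detected in the 3 contralateral and in 0 healthy kidneys, differed by 0.97 and the mean of its probes by 0.14.

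Contralateral kidneys of Twist-line mice without cre (ggt-cre-;Twist flox/flox, mice 1 to 3, 10 weeks, C57Bl/6 and sv129) came from mice with the same operation. Snail-line against Twist-line contralateral kidneys called 1717 genes (13.3%). Raw signal at the 25th percentile was 88.3 to 95.9 in those Twist-line arrays, below both groups compared above, and its part in this count was not tested. Tm7sf3 was higher in the Snail line by 4.17 (adjusted p = 0.000256), Tomm22 by 3.85 (adjusted p = 9.56e-11) and Timmdc1 by 2.21 (adjusted p = 3.33e-08). Pdrg1 differed by 1.01 (adjusted p = 0.515), at 8.29 to 8.68 in the Twist-line kidneys. Ctsc, Prcp and Ccng2 differed by -0.06, 0.03 and 0.49 (adjusted p = 0.959, 0.976 and 0.284). Of the falls, Chmp1a, Ubxn10 and Pla2g2c differed by 0.24, 0.09 and 0.03 (adjusted p = 0.778, 0.793 and 0.926). Cmss1 and Adat2 differed by -2.03 and -1.45 (adjusted p = 1.4e-06 and 0.0165). Twist-line levels thus lay near the Snail line in Ctsc, Prcp, Chmp1a, Ubxn10 and Pla2g2c and near the wild-type mice in Tm7sf3.

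In mice with cre of the Twist line some of these genes were high or near background by mouse, and alike in both kidneys of a mouse. Pdrg1 was at 4.41 in the contralateral and 4.53 in the obstructed kidney of mouse 7, and at 8.50 and 8.98 in mouse 4. Tm7sf3 was at 6.90 and 7.01 in mouse 4, and at 4.55 and 4.36 in mouse 7. In the Snail line with cre, Twistnb was at 4.80 and 4.37 in mouse 13, and at 6.22 and 5.78 in mouse 11. In each case the obstructed and the contralateral kidney of a mouse were close, a description of single mice with no test.

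Healthy Snai1-deleted kidneys, with cre and 26 weeks old, differed from the Snail-line contralateral kidneys at 38 genes (0.295%). Of the 25 named genes that were called against healthy wild-type kidneys, Twistnb (1.89, adjusted p = 0.00135) and Msmo1 (-1.95, adjusted p = 0.0366) were called there. Pdrg1, Tm7sf3 and Tomm22 differed by -0.15, 0.46 and -0.67 (adjusted p = 0.973, 0.837 and 0.289). Aldh1a1 was at 6.83, 6.78 and 7.45 in those healthy kidneys and at 5.21, 5.30 and 5.46 in the contralateral ones (difference -1.70, adjusted p = 0.0794).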

How the data were processed

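The data were 37 Illumina bead arrays of whole kidney RNA from 25 mice in 12 groups by genotype, phenotype and age, with mice told apart by the number in their label. Per the file headers, the authors deposited 1 intensity for each of 45281 probes and array, not normalised, and beside it a detection p-value. Per the submitters' processing notes the tool was GenomeStudio 5.0. How it corrected background is not given in the sources used here. A second deposited table with the authors' processed values served as an alternative. All array columns were matched to a sample by name, with 0 left over.

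Intensities were background-corrected and quantile-normalised with neqc (offset 16) in limma 3.58.1 under R 4.3.3. Probes with a detection p-value under 0.05 on at least 3 arrays were kept (24544). Probes were named through GEO's platform annotation: 34885 probes had 1 symbol, 18 several and 10378 none. Where a gene had several such probes, the one brightest on average over the 37 arrays stood for it, which left 12866 genes. A linear model of 12 group means was fitted to all 37 arrays with limma (lmFit, eBayes), so that the spread was estimated over all groups. Adjusted p-values come from this fit unless another fit or reference is named beside them. Benjamini-Hochberg adjustment ran over 12866 genes, with a threshold of 0.05. A gene not detected on any array of 1 group is given as a bound. The p-values rest on a spread pooled over all 12 groups, not on the 6 compared kidneys alone. In the fit of those 6, 12 of the 25 named called genes missed the threshold and 13 kept it. Those that missed it included Ctsc, Prcp, Ccng2 and Hspa1a. With 3 arrays in each group the precision is limited.

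Genes were named by rule: the 12 largest rises and 12 largest falls among called genes whose groups do not overlap, without clone or predicted names, up to 4 called members of each list, and the genes of the target and strain lists. The comparison and the 40 gene lists were chosen with earlier results of these data known. The groups compared share no mouse. Over the 12 mice that gave both kidneys, deviations from the group means correlated at 0.171 to 0.63 (consensus correlation 0.233), and mouse as a random block was an alternative. Other alternatives changed the normalisation, the probe filter, the rule for several probes, the arrays in the fit, the variance model and the reference group, or left out 1 array. In simulated data on the 12866 genes for this comparison, 73.5% of 200 genes changed by a log2 of 1 were recovered with 8 false calls, and 94.5% of those changed by 2 with 7 false calls. The simulated noise was independent, with the same spread in every group. Paired kidneys and genes whose spread differs between groups are thus not covered.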

Additional observations from a re-analysis of the deposited data

Results flagged for a closer look

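Snail-line and Twist-line contralateral kidneys without cre were each set against the same healthy wild-type arrays, and for 14 of the named genes the difference between these effects, which equals Snail line minus Twist line, passed the limma threshold. Higher in the Snail line were Tm7sf3 by 4.17 (adjusted p = 0.000256), Tomm22 by 3.85 (adjusted p = 9.56e-11), Timmdc1 by 2.21 (adjusted p = 3.33e-08), Twistnb by 1.94 (adjusted p = 0.000145), Eif4e by 1.82 (adjusted p = 1.4e-06) and Rassf3 by 1.28 (adjusted p = 0.00619). Lower in the Snail line, with negative differences, were Lrrc57 at -2.77 (adjusted p = 0.000632), Pygb at -2.38 (adjusted p = 2.96e-06), Msmo1 at -2.35 (adjusted p = 0.00107) and Aldh1a1 at -2.23 (adjusted p = 0.0015). The others were Cmss1 at -2.03 (adjusted p = 1.4e-06), Pla2g4b at -1.91 (adjusted p = 0.00156), Adat2 at -1.45 (adjusted p = 0.0165) and Zcchc3 at -1.22 (adjusted p = 0.00584). Over all genes that comparison called 1717 of 12866 (13.3%).

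Outside the gene-level comparison, 3932 kept probes have no single gene symbol. In the same model over all 24544 kept probes, 20 of them passed the threshold, 8 higher and 12 lower in the contralateral kidneys, among 121 probes in all.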

How the results depend on the processing

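The comparison of Snail-line contralateral with healthy wild-type kidneys was recomputed under 18 alternatives. Its 57 calls became 25 with the authors' processed values, 19 in a fit of the 6 arrays alone and 90 with array quality weights, and 28 to 46 when 1 array was left out (28 without wild-type mouse 19, 36 without mouse 10 and 37 without mouse 8). The remaining alternatives gave 45 to 70. Mouse as a random replicate block gave 59 and changed no count of calls by more than 1.5 times. A fixed paired block was not possible because the groups compared share no mouse. The 15 calls on chromosome 2 became 4 with the 6 arrays alone. The 2 lower heat shock chaperones became 1 with the authors' processed values, 0 with the 6 arrays alone or without obstructed kidneys, and 0 to 3 when 1 array was left out (0 without mouse 8, 9 or 19, 1 without mouse 10). Leaving out 1 array, Snail-line against Twist-line contralateral kidneys gave 726 to 1655 calls in place of 1717 (726 without Snail-line mouse 8, 1044 without mouse 10, 1088 without Twist-line mouse 2, 1121 without mouse 3). Cre-positive against cre-negative wild-type kidneys gave 1 to 7 in place of 2 (1 without mouse 14 or 19, 5 without mouse 15 or 18, 7 without mouse 16). Of 25 named called genes, Tm7sf3, Tomm22, Timmdc1, Cmss1, Chmp1a and Zcchc3 passed under every alternative run. The other 19 missed the threshold in 1 or more, and 0 turned in sign. Without the background step the differences of these 25 genes were 0.563 times those reported (median, lowest 0.369), and 15 shrank by over 1.5 times. The mean of a gene's probes shrank 4 of them by that much (Tomm22 to 1.55, Prcp to 1.21, Pla2g4b to -0.75, Zcchc3 to -1.17). Both wild-type groups as reference shrank 5, Aldh1a1 to -1.15 beside the 4 given above. The authors' processed values raised Tm7sf3 to 8.00 and Camk2b to 3.04. The calls lost most often were those of Camk2b and Aldh1a1 (11 of 18 alternatives each), Rassf3, Rell1 and Atp10d (8 each) and Msmo1 (7). Among named genes that were not called, signs turned in 11 cases. Zeb2 turned to 0.14 with the mean of its probes, Snai1 to -0.0087 with both wild-type groups, and Twist2 to 0.080 with the authors' processed values and 0.044 with array weights. With 1 array left out, H2-Ea ran from -0.056 to 0.48, Snai1 from -0.12 to 0.29, Zeb1 from -0.026 to 0.13 and Twist2 from -0.092 to 0.068. Of 8 named genes that were not called, 0 were called under any alternative that gave them a value; Twist2 had none in 1 of them. The fit of 6 estimates the spread from those arrays only, and causes of all these shifts were not tested.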

Other observations

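Each group held 1 mouse in which Xist exceeded the Y-linked genes, and some kidney genes split the 6 kidneys along that line instead of by group. Cyp2j13, a cytochrome P450, was at 11.81, 11.63 and 6.52 in mice 8, 9 and 10 and at 4.74, 11.70 and 11.59 in mice 17, 18 and 19. Kynu, the kynureninase of tryptophan breakdown, was at 6.52, 7.05 and 10.06 against 10.41, 6.92 and 6.45. Scd1, a fatty acid desaturase, was at 9.81, 9.59 and 12.05 against 12.32, 8.98 and 9.47. In these 3 genes, chosen after their values were seen, mice 10 and 17 stood together against the other 4, and the differences between the groups were 0.64, -0.05 and 0.23 (limma adjusted p = 1 for each).

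H2-Aa, which encodes a class II histocompatibility chain, was detected in 2 of 3 mice of the contralateral group and 1 of 3 healthy mice, at 4.58, 8.61 and 8.13 in mice 8, 9 and 10 against 8.01, 4.45 and 4.39 in mice 17, 18 and 19. The class II genes H2-Ab1 and H2-Eb1 were detected in all 6 of these mice.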
